A study of Homo sapiens with 6 samples.

Results

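The potassium channel genes described here were the 91 gene names of the merged transcript assembly, on chromosomes 1 to 22 and X, that consist of KCN, at least 1 letter and a number, out of 25211 gene names in all. The rule leaves out 3 such symbols, which were not analysed here. The letter after KCN sorts the genes into 18 families. By their names, 76 genes encode subunits that line the pore and 15 encode auxiliary subunits, namely 3 KCNAB, 4 KCNE, 4 KCNIP and 4 KCNMB genes. No measured value entered this choice.

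The study sequenced RNA of EndoC-βH1, an established human pancreatic beta cell line, after lentiviral delivery of a short hairpin RNA (shRNA) aimed at the promoter of the insulin gene INS. In the INS shRNA induced group, 3 libraries came from cells kept for 7 days in doxycycline, the inducer of the hairpin, at 1 mg/mL. In the negative control group, 3 libraries came from transduced cells without doxycycline. The labels list no group with doxycycline and no hairpin. The data examined were 1 merged set of 55083 transcript models for all 6 libraries, built with Cufflinks. It holds exon positions and no abundance, so the levels of these genes, of INS and of beta cell markers in each library were not analysed here, and neither was any contrast of induced with control cells. Depth is unknown, and no value below has a replicate.

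Potassium channels let potassium ions leave the cell and so pull the membrane back towards rest. In beta cells, channels that close when ATP rises set the resting potential. Voltage-gated channels of the KCNB type and calcium-activated channels such as that of KCNMA1 end each action potential, and a tandem-pore channel of the KCNK16 gene passes a background current. The pore-forming subunits share a short selectivity filter, in which 2 glycines flank a tyrosine or phenylalanine. Auxiliary subunits have no filter of their own: KCNAB and KCNIP proteins bind voltage-gated channels from inside the cell, while KCNE and KCNMB proteins are small membrane proteins that change gating.

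The filter was first read in the reference sequence, to show what unites the pore-forming genes. In the longest ATG-to-stop frame over the RefSeq transcripts of a gene, a match was threonine, serine or asparagine, then threonine, valine, isoleucine, methionine, leucine or alanine, then glycine, then tyrosine, phenylalanine or leucine, then glycine. All 76 pore-forming genes had a match, and 0 of the 15 auxiliary genes had one. The pattern is short and was present in 467 of 19092 coding gene names (2.45%), so a match alone does not mark a channel. The following windows of 27 coding bases on hg19 show 1 gene of most pore-forming letters, with the codons of glycine, aromatic residue and glycine in capitals; coordinates of a window cut by an intron run over that intron.
KCNA2 (chr1:111146265-111146291, minus strand): atgacaactgtaGGCTATGGAgacatg
KCNC2 (chr12:75444456-75444482, minus strand): atgactaccctgGGTTATGGGgatatg
KCND3 (chr1:112329716-112524256, minus strand): atgaccacactgGGATACGGAgacatg
KCNF1 (chr2:11053654-11053680, plus strand): atgaccaccgtcGGCTACGGCgacatc
KCNG3 (chr2:42671248-42671274, minus strand): atgactacagttGGCTATGGAgatatg
KCNH6 (chr17:61613348-61613374, plus strand): ctcaccagcgtgGGCTTCGGCaatgtc
KCNJ15 (chr21:39671556-39671582, plus strand): cagacaaccattGGCTATGGAgtccgt
KCNK16 first loop (chr6:39285715-39286807, minus strand): gtcactaccataGGATATGGGaacctg
KCNK16 second loop (chr6:39284565-39284591, minus strand): ctcagcaccattGGCTTTGGGgactat
KCNMA1 (chr10:78869988-78870014, minus strand): atgtccaccgttGGTTATGGGgatgtt
KCNN3 (chr1:154705530-154705556, minus strand): ttcctttccattGGTTATGGGgacatg
KCNQ5 (chr6:73814986-73815012, plus strand): ttgacaactattGGCTATGGAgacaaa
KCNS3 (chr2:18113377-18113403, plus strand): atgacaactgtgGGCTATGGAgacacc
KCNT2 (chr1:196398782-196398808, minus strand): ttttctactgtgGGCTTCGGGgatgtc
KCNV2 (chr9:2729452-2729478, plus strand): atctccaccgtgGGCTACGGAgacatg

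The 89 matches had tyrosine in the middle in 62, phenylalanine in 25 and leucine in 2. All 8 KCNH genes, the ether-a-go-go group of voltage-gated channels, had phenylalanine, as did KCNT2, a sodium-activated channel, and KCNU1, a channel known from sperm. The remaining phenylalanine matches, most of the 25, were all in KCNK genes. Both leucines were in the second match of KCNK1 and KCNK6. The KCNK genes encode tandem-pore subunits with 2 pore loops in 1 chain, and 13 of the 15 had 2 matches. KCNK7 had a match at the first loop alone and KCNK15 at the second loop alone, which says only that the other loop differs from these letters.

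Introns met the filter at fixed places in 2 families. Of the 89 windows, 72 lay in 1 exon, and the 17 cut by an exon junction were those of the 3 KCND genes and the first window of 14 KCNK genes. In all 14 KCNK genes the junction came after base 13 of the window, that is after the first base of the first glycine codon. In all 3 KCND genes, which encode fast-inactivating voltage-gated channels, it came 1 base later, after base 14. The second KCNK window lay within 1 exon in 13 genes with 2 matches, and so did the single window of KCNK15.

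The 91 genes carried 233 models. Of these, 214 were RefSeq transcripts, 7 of them non-coding, and 18 were joined models, which share splice junctions with a RefSeq transcript but whose chain of introns is not that of any. The remaining model was 1 longer match to a KCNJ18 transcript. RefSeq transcripts are carried over from the annotation whether or not a cell uses the gene, so their presence is no measure of expression. The genes had 1 RefSeq transcript in 47 cases and at least 2 in 44, with a mean of 2.35 against 2.08 over all 19092 coding gene names and a median of 1 in both.

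Among voltage-gated pore genes, the 8 KCNA genes of the Shaker type had 11 RefSeq transcripts, the 4 KCNC genes had 13, and the 8 KCNH genes had 17. The 4 KCNQ genes, whose channels carry the M-current of neurons, had 14. The modifier subunits, known to form channels together with KCNB partners, had few: 4 transcripts at 3 KCNS genes, 5 at 4 KCNG genes, 2 at 2 KCNV genes and 1 at KCNF1. The calcium-activated gene KCNMA1 had 9, the most of any member, and the 4 KCNN genes of small and intermediate conductance had 9. The 14 inward rectifier genes of family J had 38 RefSeq transcripts, and the 15 tandem-pore genes had 27. Among auxiliary genes, the 4 KCNIP genes had 20, the 4 KCNE genes 11, the 4 KCNMB genes 11 and the 3 KCNAB genes 10.

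**Figure D1:**
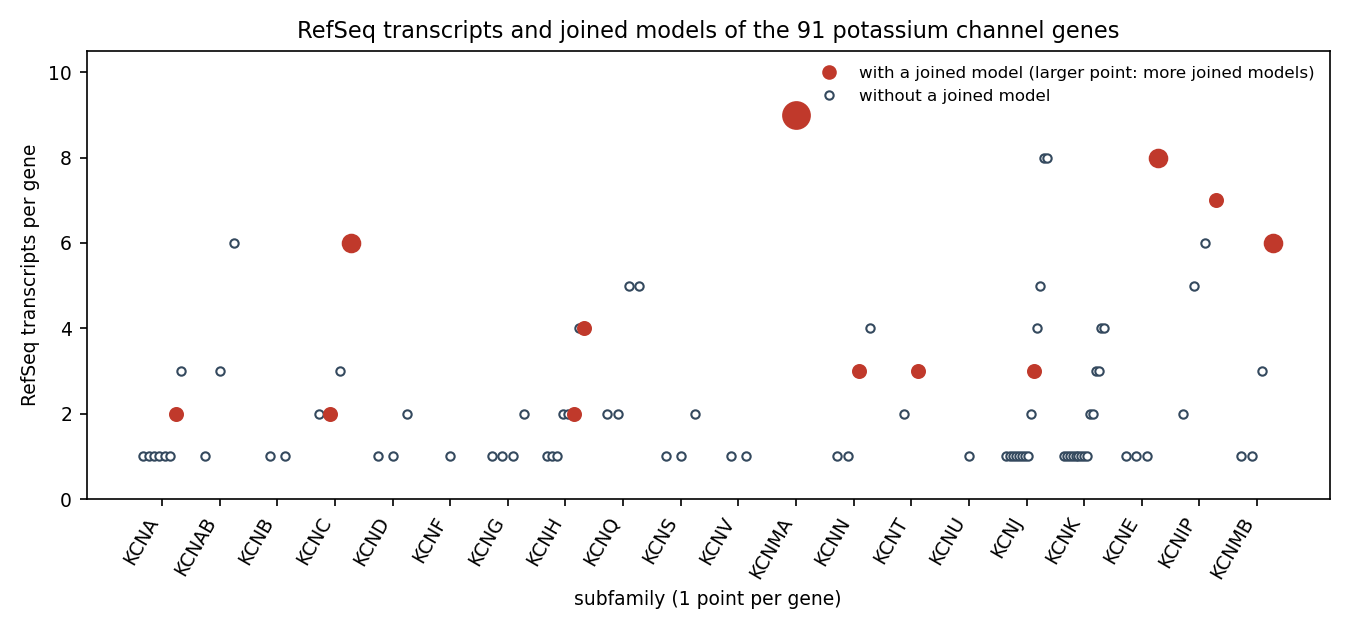
RefSeq transcripts per gene (vertical axis) for each of the 91 potassium channel genes, grouped by subfamily along the horizontal axis. Red points are the 12 genes with a joined model, drawn larger for more joined models, and open points the genes without one; KCNMA1 stands highest with 9 RefSeq transcripts and 4 joined models.

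The median span of the potassium channel genes was above that of all coding gene names, and the median of their highest exon number below it. The median span was 37895 bases against 23295 over all coding gene names, and the median of the longest intron was 26908 against 8496 bases. The median of the highest exon number was 4 against 8. A span over 100000 bases was found at 27 members (29.7%, exact Clopper-Pearson 95% interval 20.5% to 40.2%) and at 16% of all coding gene names. The longest members were KCNIP4 with 1220136 bases, KCNMA1 with 768219, KCNQ5 with 577003, KCND2 with 476666 and KCNH7 with 467341. Their longest single introns reached 912253 bases in KCNIP4 and 457155 bases in KCND2. An intron over 100000 bases was present at 20 members, a count without a share over all coding gene names beside it.

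The shortest members were KCNA10 with a span of 1959 bases, the modifier gene KCNF1 with 2289, KCNA5 with 2870, KCNK7 with 3142 and the auxiliary gene KCNE4 with 3710. The first 3 of these had single-exon models alone. The GENCODE canonical coding sequence lay in 1 exon at 21 of the 90 members found there by name (23.3%, 15.1% to 33.4%), against 11.4% of canonical coding transcripts in GENCODE as a whole. These were 7 of the 8 KCNA genes, 7 KCNJ genes, all 4 KCNE genes, KCNF1, KCNS2 and KCNS3. The exception in KCNA was KCNA7. At the other end, the longest frame ran over up to 31 exons in the KCNT genes and 28 in KCNMA1.

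**Figure D2:**
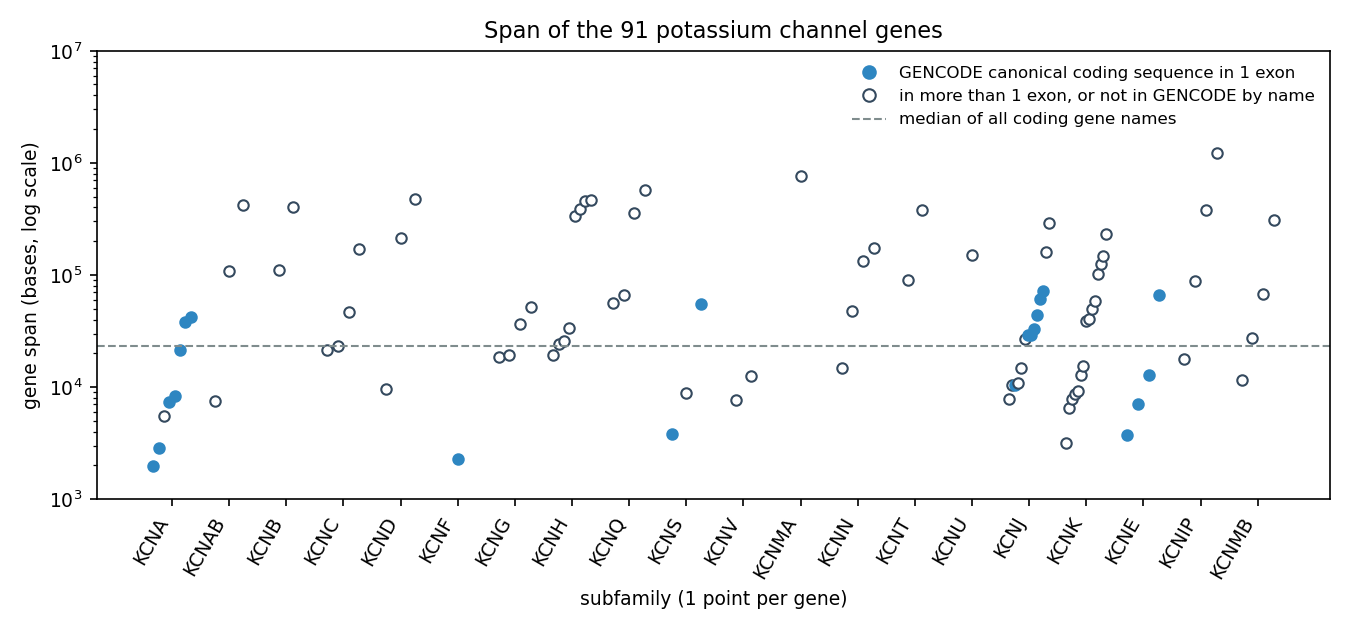
Span of each of the 91 genes in bases on a log scale (vertical axis) by subfamily (horizontal axis). Filled points are genes with the GENCODE canonical coding sequence in 1 exon, open points the rest, and the dashed line is the median of all coding gene names, 23295 bases.

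A joined model was present at 12 of the 88 members with a multi-exon RefSeq transcript (13.6%, 7.25% to 22.6%), close to the 12.4% of all 21400 such gene names, members included. The share differed with the number of RefSeq transcripts. It was 0 of 44 members with 1 transcript, which allows up to 8.04% by the same interval, against 0.75% of all genes. Joined models consist almost entirely of annotated introns, and 1 transcript leaves little to recombine, so a low share there is nearly fixed in advance. The share was 3 of 16 (18.8%) against 6.03% with 2 transcripts, 4 of 15 (26.7%) against 37.9% with 3 to 4, and 2 of 8 (25%) against 56.8% with 5 to 6. With 7 or more it was 3 of 5 (60%) against 69.9%. The interval of the members held the value of all genes in every one of these groups. Intervals cover counting error only.

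**Figure D3:**
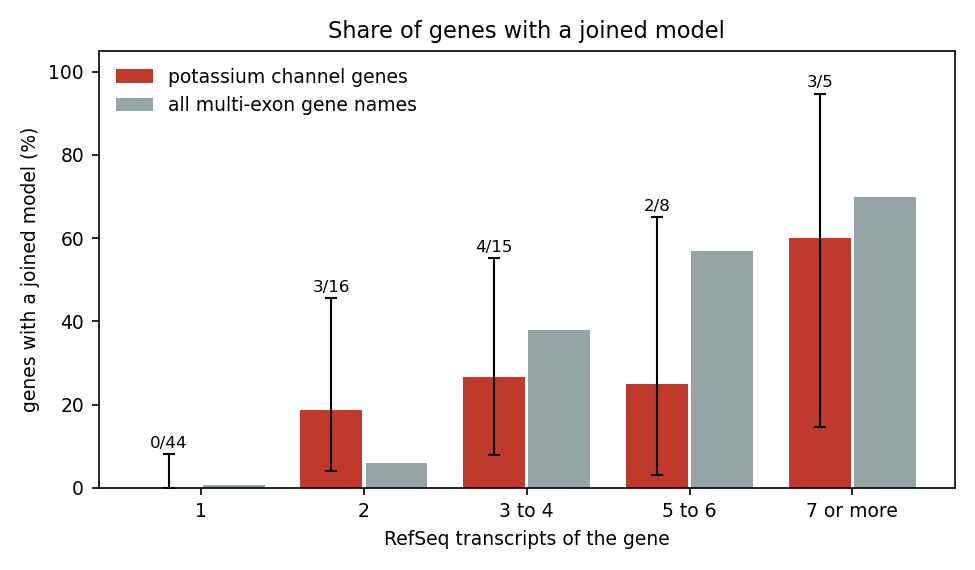
Share of genes with at least 1 joined model (percent, vertical axis) by the number of RefSeq transcripts of the gene (horizontal axis). Red bars are potassium channel genes, with their counts and exact Clopper-Pearson 95% intervals, and grey bars all multi-exon gene names; the grey bar lies inside the red interval in all 5 groups.

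Of the 12 genes with a joined model, 11 are described: the voltage-gated genes KCNA2, KCNC2, KCNH6 and KCNH7, the calcium-activated genes KCNMA1 and KCNN3, the sodium-activated gene KCNT2, the inward rectifier gene KCNJ13, and the auxiliary genes KCNE1, KCNIP2 and KCNMB3. Of the 18 joined models, KCNMA1 had 4, KCNC2, KCNE1 and KCNMB3 had 2 each, and the other 8 genes had 1 each. No joined model was found at any of the 15 KCNK, 4 KCNQ, 3 KCND or 2 KCNB genes, nor in families F, G, S, U and V. Of these, 9 KCNK, 2 KCND and both KCNB genes had 1 RefSeq transcript, a group in which 0.75% of all genes had a joined model. The absence is therefore not a trait shown for these families. All 18 used introns of RefSeq transcripts alone, as did 99.8% of the 4907 joined models on these chromosomes, and began and ended at RefSeq ends. They recombine known introns: 14 could be laid out as 2 stretches of introns from 2 transcripts, 3 needed 3 stretches, and 1 needed 1. The whole chain was present in GENCODE for 4 of 18 (22.2%, 6.41% to 47.6%), against 6.83% of all joined models. Among them were the model of KCNH6, that of KCNIP2 and the first of KCNMA1.

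The reading frames split the joined models evenly. In 9 of 18 (50%, 26% to 74%) the longest frame was identical to that of a RefSeq transcript of the gene, against 36.4% of all joined models with a coding gene. In 15 of 18 (83.3%, 58.6% to 96.4%) it was shorter than the longest RefSeq frame of the gene, against 82.5% of all, and in the other 3 it had the same length. The intervals over the 18 models, also that for chains in GENCODE, treat each model as independent. Models of 1 gene are not independent, and KCNMA1 alone gave 4 of the 18. Genes whose joined frames were identical to no RefSeq frame numbered 6 and included KCNH7, KCNIP2, KCNMA1, KCNN3 and KCNT2. In these the difference lay mostly in whole exons whose length is a multiple of 3.

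**Figure D4:**
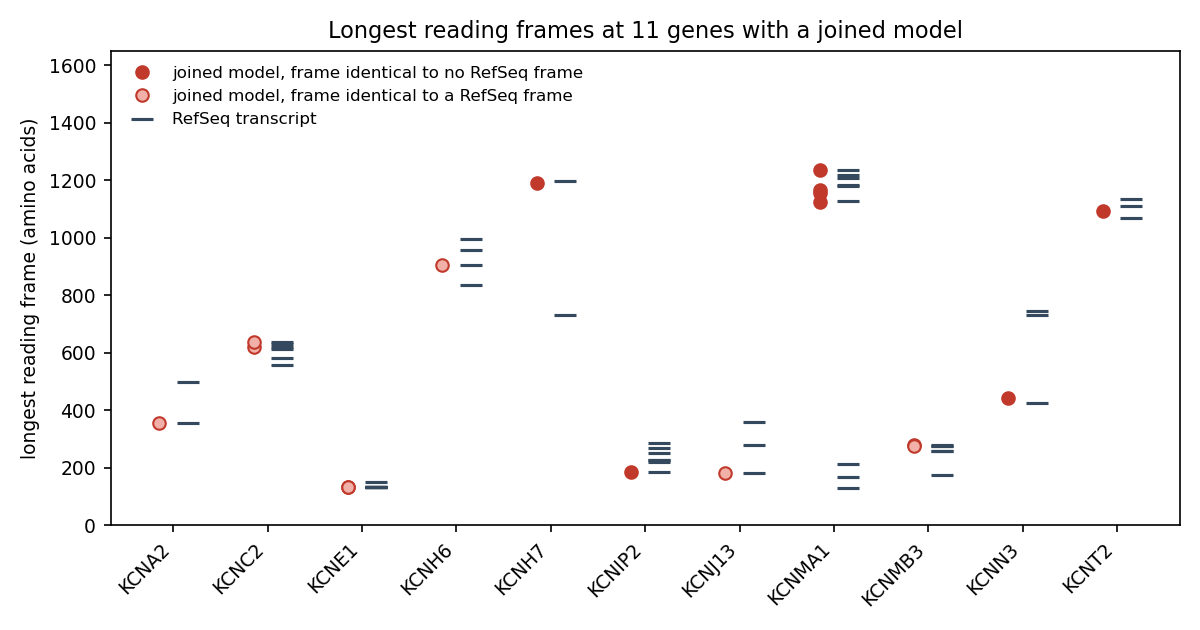
Longest reading frame in amino acids (vertical axis) of the joined models (points) and of the RefSeq transcripts (bars) at 11 genes with a joined model. Dark points are the 8 joined models shown with a frame identical to no RefSeq frame, pale points the 9 identical to one; no point lies above the highest bar of its gene.

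KCNMA1 encodes the pore of the large-conductance channel that opens with both calcium and voltage, and its protein is known for inserts from alternative exons. The gene lies at chr10:78629359-79397577 on the minus strand of hg19. Its 9 RefSeq transcripts shared 1 start site group, and 6 internal exons were skipped by some coding transcripts. They are shown with the exon in capitals and 10 intron bases on either side, because the joined models differ from RefSeq in how they combine them; the 174-base exon is the one known as STREX.
KCNMA1 162-base exon (chr10:79163610-79163791, minus strand): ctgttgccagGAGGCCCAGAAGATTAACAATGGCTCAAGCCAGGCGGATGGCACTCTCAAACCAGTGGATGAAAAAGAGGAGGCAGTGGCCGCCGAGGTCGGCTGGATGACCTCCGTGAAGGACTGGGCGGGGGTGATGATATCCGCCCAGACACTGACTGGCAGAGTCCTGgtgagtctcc
KCNMA1 12-base exon (chr10:78785194-78785225, minus strand): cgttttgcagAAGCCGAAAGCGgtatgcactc
KCNMA1 9-base exon (chr10:78767933-78767961, minus strand): acactggtagTGATATATTgtgagtaaaa
KCNMA1 174-base exon (chr10:78761155-78761348, minus strand): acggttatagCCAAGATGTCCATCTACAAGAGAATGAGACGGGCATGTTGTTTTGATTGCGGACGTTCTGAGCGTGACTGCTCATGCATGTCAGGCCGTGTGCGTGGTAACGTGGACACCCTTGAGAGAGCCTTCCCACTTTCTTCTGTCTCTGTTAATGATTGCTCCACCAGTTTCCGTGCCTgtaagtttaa
KCNMA1 123-base exon (chr10:78711785-78711927, minus strand): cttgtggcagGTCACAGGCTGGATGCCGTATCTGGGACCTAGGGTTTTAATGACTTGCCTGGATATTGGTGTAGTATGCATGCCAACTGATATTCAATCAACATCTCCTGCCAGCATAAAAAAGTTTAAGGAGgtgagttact
KCNMA1 81-base exon (chr10:78673805-78673905, minus strand): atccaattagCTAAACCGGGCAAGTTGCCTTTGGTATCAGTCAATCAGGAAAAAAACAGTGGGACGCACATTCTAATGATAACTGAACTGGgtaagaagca

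All 6 exons have a length divisible by 3, at 162, 12, 9, 174, 123 and 81 bases, so each adds or removes whole codons. Model 1 held the 162- and 174-base exons and the last pair of exons of 225 and 8293 bases. The 174-base exon occurs in 1 RefSeq transcript, which ends with another last exon of 2639 bases. Model 1 had a frame of 1236 amino acids, the same length as that RefSeq frame, with which it shared the first 1228 residues and not the last 8. Model 4 ended with the 2639-base exon, lacked all 6 exons and had a frame of 1124 amino acids. It was the frame of 1178 amino acids of NM_002247 without the 54 residues of the 162-base exon.

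Models 2 and 3 also lacked the 162-base exon and ended like model 1. Model 2 held the 123-base exon and had a frame of 1165 amino acids. Model 3 held the 9- and 81-base exons, and its frame had 1154. In RefSeq, the 162-base exon is absent from 1 full-length transcript, which holds the 12-base exon. The 12-base exon was in 0 of the 4 joined models and in 2 of 9 RefSeq transcripts. Each of models 2 and 3 needed 3 stretches of introns, of 14, 12 and 1 introns in model 2 and of 14, 13 and 1 in model 3. The file does not show which reads link exons this far apart.

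**Figure D5:**
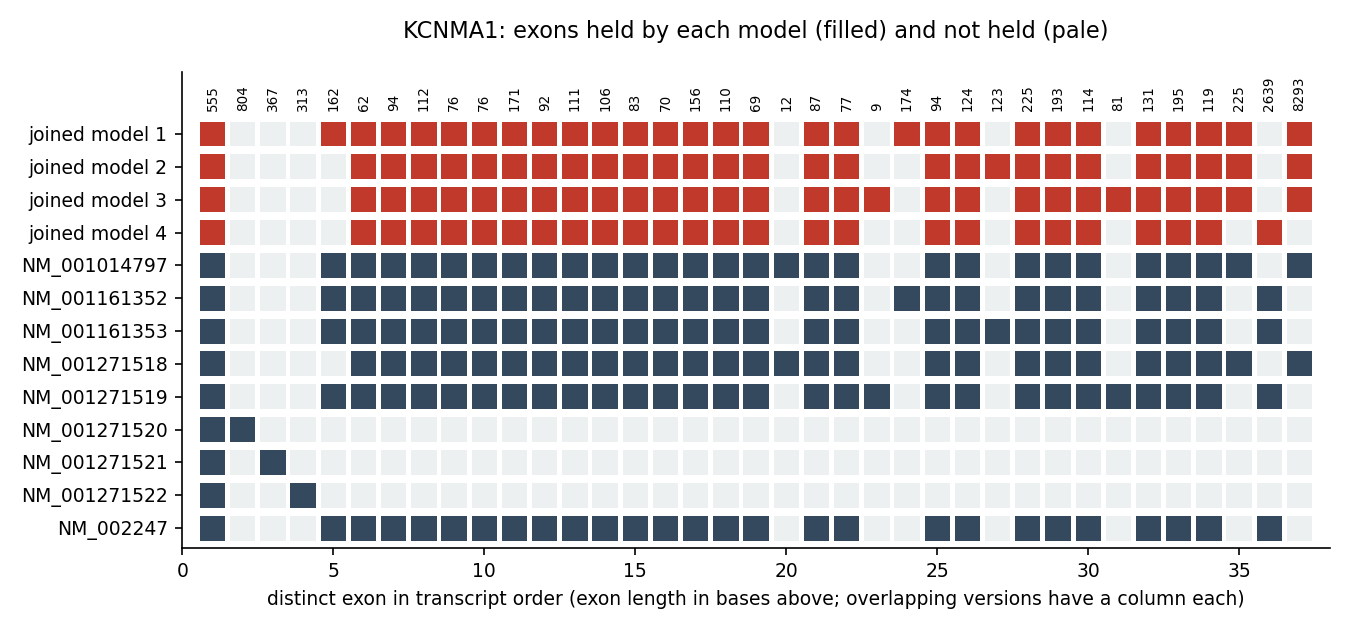
Exons held by the 4 joined models (red, upper rows) and the 9 RefSeq transcripts (dark, lower rows) of KCNMA1, with distinct exons in transcript order along the horizontal axis and their length in bases above. Joined models 2, 3 and 4 lack the 162-base exon, none holds the 12-base exon, and models 1 to 3 end with the 225- and 8293-base exons.

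At the other genes with a changed frame, the joined model differed from RefSeq mostly in how it combined short exons. The exons below are each in at least 1 RefSeq transcript of the gene and absent from at least 1 other. They are shown in the same way, exon in capitals, for KCNN3 (in the joined model), KCNT2 (the 150-base exon absent from it, then the 72- and 21-base exons in it), KCNH7 and KCNIP2 (both absent from it).
KCNN3 45-base exon (chr1:154709510-154709574, minus strand): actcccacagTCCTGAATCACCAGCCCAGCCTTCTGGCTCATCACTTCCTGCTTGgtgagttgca
KCNT2 150-base exon (chr1:196311199-196311368, minus strand): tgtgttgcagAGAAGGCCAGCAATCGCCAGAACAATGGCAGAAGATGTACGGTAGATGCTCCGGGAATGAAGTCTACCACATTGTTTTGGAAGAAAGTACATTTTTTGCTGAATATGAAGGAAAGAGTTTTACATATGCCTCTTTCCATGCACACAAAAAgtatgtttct
KCNT2 72-base exon (chr1:196288604-196288695, minus strand): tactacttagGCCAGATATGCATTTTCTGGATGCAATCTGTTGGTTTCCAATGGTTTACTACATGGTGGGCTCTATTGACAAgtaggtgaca
KCNT2 21-base exon (chr1:196242588-196242628, minus strand): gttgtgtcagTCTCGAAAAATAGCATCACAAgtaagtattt
KCNH7 21-base exon (chr2:163369154-163369194, minus strand): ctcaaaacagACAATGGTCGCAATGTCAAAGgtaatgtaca
KCNIP2 108-base exon (chr10:103587898-103588025, minus strand): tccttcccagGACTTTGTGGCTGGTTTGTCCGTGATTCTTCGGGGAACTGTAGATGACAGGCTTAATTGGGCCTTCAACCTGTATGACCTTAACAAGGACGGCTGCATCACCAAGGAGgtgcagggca

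KCNN3 encodes the small-conductance calcium-activated channel SK3. Its joined model began at the first exon of the short RefSeq form, of 168 bases, and held the 45-base exon that RefSeq has in 1 long form alone. The joined frame had 441 amino acids, against 746, 731 and 426 in the RefSeq transcripts, and so was 15 residues longer than the short form. KCNT2 had a joined frame of 1092 amino acids. It contained all of the RefSeq frame of 1068 and 24 residues more, those of the 72-base exon, against a longest RefSeq frame of 1135. KCNH7, a channel of the ether-a-go-go-related type, had a joined frame of 1189 amino acids against 1196, shorter by the 7 residues of the 21-base exon. Its other RefSeq frame, of 732 amino acids, came from a transcript that also lacks this exon.

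KCNIP2 encodes a calcium-binding partner of KCND channels. Its joined frame had 184 amino acids, against a longest RefSeq frame of 285. It is the RefSeq frame of 220 without the 36 residues of the 108-base exon. Another RefSeq transcript, NM_173197, also lacks this exon and has a frame of 184 amino acids. The joined frame shared the first 169 residues of that frame and not the last 15.

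The longest frames of the joined models of the other 6 genes were each identical to a RefSeq frame, and the models differed around it. At KCNC2, a fast delayed rectifier of the Shaw type, the frames had 618 and 638 amino acids against a longest RefSeq frame of 638. The models carried exons of 1534 and 962 bases found in 0 of 6 RefSeq transcripts, each running from the start of a RefSeq last exon to the end of a 95-base internal exon. At KCNMB3, an auxiliary subunit of the KCNMA1 channel, the frames had 279 and 277 amino acids against 279, and 1 model began with an 822-base exon in no RefSeq transcript. In these 4 models of KCNC2 and KCNMB3 the stop codon lay more than 50 bases before the last exon junction, and in no other joined model.

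At KCNE1, a small auxiliary subunit, both joined models began with the first 2 exons of 1 RefSeq transcript, of 249 and 215 bases. One went on through an 83-base exon and the other directly to the 2997-base last exon, which every RefSeq transcript holds. Both frames had 132 amino acids, as in 7 of 8 RefSeq transcripts, and 129 from the annotated start codon; the longest RefSeq frame had 150. KCNA2 joined the first exon of one of its 2 RefSeq transcripts to the rest of the other and had a frame of 356 amino acids against 499. The KCNA2 filter, at chr1:111146265-111146291, lay in no exon of this model. It also lay in no exon of the RefSeq transcript with the identical frame. At KCNH6 the joined model had 13 consecutive introns of 1 RefSeq transcript and the 3′ end of the 3 others, with a frame of 905 amino acids against 994.

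KCNJ13 encodes an inward rectifier known from epithelia. Its joined model held a 7-base exon, the shortest exon of any member, which combines the start of one RefSeq exon with the end of another and is in 0 of 3 RefSeq transcripts. It is shown with 10 intron bases on either side.
KCNJ13 7-base exon (chr2:233635839-233635865, minus strand): gtctttgcagTGCTCTGgtatgttctg
The frame had 180 amino acids, identical to that of 1 RefSeq transcript, against a longest frame of 360. It began 208 bases into the model, past the first exons of 121 and 7 bases, and so lay in the last exon alone. The model had no frame from an annotated start codon, and the filter, at chr2:233635698-233635724, lay in none of its exons. RefSeq transcripts held exons of up to 27 bases at 7 members, namely KCNH7, KCNMA1, KCNN1, KCNQ3, KCNQ5, KCNT1 and KCNT2, with 9 to 27 bases.

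Over all members, 25 had an internal exon that another coding RefSeq transcript of the gene skips, against 4818 of the 19092 coding gene names. These made 51 skipped exons in members, with versions of 1 exon that differ in a splice site counted separately. Their length was a multiple of 3 in 32 (62.7%), against 55.7% of such exons over all coding gene names. Of the 210 internal exons shared by all coding transcripts of a member with at least 2, it was 72 (34.3%), against 39.6% over all. These counts do not separate coding from non-coding exons. All 6 skipped exons of KCNMA1 were such multiples and lay inside a frame, whereas at KCNJ15 it was 0 of 4, and there the frame lies in 1 other exon.

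More than 1 start site group, the tag by which the assembly marks models with a common 5′ start, was found at 23 of 91 members (25.3%, 16.7% to 35.5%), against 18.4% of all coding gene names. Of these, 16 had at least 2 coding groups and 7 had 1. KCNIP4, a calcium-binding partner of KCND channels, had the most, with 6 start site groups for 6 RefSeq transcripts and 5 coding groups. At 4 of its starts the first exon holds the start codon of the frame. The coding part of each of these exons is shown with the start codon in capitals. It gives NM_025221, NM_147183 and NM_001035003 each their own amino end.
KCNIP4 first exon of NM_147181 (chr4:20852166-20852267, minus strand): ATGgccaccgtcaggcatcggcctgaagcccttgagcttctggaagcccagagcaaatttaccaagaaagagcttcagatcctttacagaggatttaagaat
KCNIP4 first exon of NM_025221 (chr4:20884231-20884282, minus strand): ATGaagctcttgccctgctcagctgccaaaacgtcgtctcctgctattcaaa
KCNIP4 first exon of NM_147183 (chr4:21305430-21305529, minus strand): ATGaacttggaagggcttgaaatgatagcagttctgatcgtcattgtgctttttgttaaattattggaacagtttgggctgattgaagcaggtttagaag
KCNIP4 first exon of NM_001035003 (chr4:21698973-21699060, minus strand): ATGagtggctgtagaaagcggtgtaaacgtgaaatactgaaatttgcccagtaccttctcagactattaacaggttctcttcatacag
The frames of these forms had 188, 213, 229 and 225 amino acids. The other 2 transcripts had the same frame of 188 amino acids as NM_147181, so the gene had 4 distinct RefSeq frames.

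KCNAB2, a cytoplasmic partner of KCNA channels, had 5 start site groups, 4 coding groups and 6 RefSeq transcripts. Some other genes with many starts had 1 coding group. KCNE1 had 5 start site groups, 8 RefSeq transcripts and 1 coding group, although its longest frames had 132 or 150 amino acids. KCNJ15, an inward rectifier, had 4 start site groups, 8 transcripts and 1 coding group, with 375 amino acids in its frame. Its neighbour in the count, KCNJ16, had 8 transcripts in 2 start site groups with frames of 418 and 453. KCNMB3 had 4 start site groups and 5 coding groups.

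Some members lie close to one another. KCNJ12 and KCNJ18, inward rectifiers of nearly identical sequence, shared 1 locus on the plus strand of chromosome 17. On hg19, 2006 of the 2198 exon bases of the KCNJ18 transcript (91.3%) were those of KCNJ12, and the 3 models of both names held 1 and the same frame of 433 amino acids. In the shared exons, which hold this frame, what was measured at one name cannot be told from the other. Their first exons differ, with 527 bases in KCNJ12 and 192 in KCNJ18. KCNJ18 was not among the gene names of GENCODE. KCNK16 and KCNK17, tandem-pore channels, follow each other on the minus strand of chromosome 6 with 236 bases between the end of KCNK16 and the start of KCNK17, and no joined model linked them. The stretch between them, which holds most of the 250 bases before the KCNK17 start, is shown in the direction of transcription.
KCNK16 to KCNK17 (chr6:39282238-39282473, minus strand): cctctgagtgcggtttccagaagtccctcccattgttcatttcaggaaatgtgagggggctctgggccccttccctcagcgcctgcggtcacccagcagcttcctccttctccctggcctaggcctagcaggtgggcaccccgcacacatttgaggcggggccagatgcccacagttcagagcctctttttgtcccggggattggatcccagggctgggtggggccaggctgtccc

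KCNMB1, an auxiliary subunit of the KCNMA1 channel, lies inside KCNIP1 on the other strand, with 0 exon bases in common. KCNJ10 and KCNJ9 face away from each other at a distance of 11308 bases. In all, 12 members overlapped a gene name on the opposite strand, 6 of them with exon bases: KCNK15 shared 510 with RIMS4, KCNIP2 291 with KCNIP2-AS1, KCNAB2 176 with NPHP4, KCNMB1 111 with CTD-2270F17.1, KCNJ13 33 with GIGYF2 and KCNH3 1 with MCRS1. Among them, KCNIP2 and KCNJ13 had a joined model. The strand of the libraries is not given in the sources used here, and reads of such pairs cannot be told apart without it. At 72 members no other gene name overlapped. No share over all gene names stands beside these counts, so they do not show whether members differ from other genes.

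The promoters of the members, read on hg19 from 250 bases before to 50 bases after the most upstream coding RefSeq start, had a median GC content of 65.7% against 61.3% over 19091 coding gene names. The ratio of observed to expected CpG, in contrast, had a median of 0.691 in members and 0.737 over all. The range of GC content over the 91 members was 42% to 85.3%. GC content was over 60% at 60 members (65.9%) and at 54.3% of all. By letter, the median was highest in KCNQ at 77.7%, KCNG at 76.8% and KCNH at 76.7%, and lowest in KCNU1 at 44.3%, family M at 47.7% and KCNE at 50.3%. Within family M, KCNMA1 had 85.3%, the highest of the 91 members, and the KCNMB genes had 42% to 66.3%. The letters TATAAA were found on either strand at 8 members (8.79%) against 10% of all. The letters CAGCACC, or GGTGCTG on the other strand, were found at 9 (9.89%) against 7.48%, and TGACGTCA at 1 (1.1%) against 2.43%. Such matches are descriptions of sequence only.

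A list of 28 genes that are no members but encode related channels, channel partners or regulators of potassium transport was counted for comparison. A joined model was present at 3 of the 28 (10.7%, 2.27% to 28.2%), against the same 12.4% of all multi-exon gene names. They were DPP6, which encodes a membrane partner of KCND channels, CNGA1, a cyclic nucleotide-gated channel, and SLC12A2, a sodium-potassium-chloride cotransporter, with 1 joined model each. The 4 HCN pacemaker channel genes had 0.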

How the data were processed

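RNA of 6 EndoC-βH1 libraries was measured, 3 with the INS shRNA induced and 3 negative controls, grouped by their titles. Per the labels' protocols, low-input full-length cDNA was made from total RNA. The submitters' processing notes name TopHat2, Cufflinks and the build hg19 but no versions, and say nothing of settings. The deposited file holds other values than abundance, namely the first and last base of each exon of the models that the authors merged with Cufflinks, with 0 of 555595 lines giving a score. The comparison of the groups that was planned therefore could not be made. Depth is unknown.

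Models were rebuilt from exon lines with Python 3.11.15, pysam 0.24.0, numpy 2.4.6 and scipy 1.17.1; figures used matplotlib 3.10.9. A RefSeq transcript was a model of class "=" named by a RefSeq transcript, and a joined model one of class j. Frames were the longest from ATG to a stop on spliced GRCh37 sequence. Of 669 distinct introns of the members, 98.5% began with GT and ended with AG on GRCh37, so the build fits hg19. GENCODE release 44, in its GRCh37 version, served to look up chains and coding exons. Run counts and frames were checked on simulated data. Shares have exact Clopper-Pearson 95% intervals, and those over joined models treat models of 1 gene as independent, which they are not. No p-values were computed.

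The members and lists were chosen with earlier results of these data known. Named genes are all members with a joined model, the member with the most RefSeq transcripts per letter, the 5 longest, the 5 shortest, the 5 with the most start site groups, and neighbours within 20000 bases or overlapping another gene on the opposite strand. Some genes that this rule names, such as KCNH2 and KCNN2, are covered by the counts of their families alone. KCNA7, KCNK1, KCNK6, KCNN1, KCNQ3, KCNS2 and KCNT1 fall outside the rule and were named after their values were seen, to spell out small counts. The table of RefSeq promoters covered 69 of 91 members (75.8%), under the share needed for a check of GC content, so promoters were read from GRCh37 instead. Cell type markers could not be examined without abundance. Results for 2 of the genes are not reported here, although both are in the counts.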

Additional observations from a re-analysis of the deposited data

How the results depend on the processing

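The share of members with a joined model depended on which members were counted. It was 27.3% (12 of 44) over members with at least 2 RefSeq transcripts and 4.55% (4 of 88) when at least 2 joined models were required, against 13.6% as reported; fewer members counted and a stricter call account for these moves by construction. The other 4 settings gave 13.2% to 17.1%. Joined models with a frame shorter than the reference were 9 when each was compared with its nearest RefSeq transcript and 12 with annotated start codons, against 15 with the longest of the gene. The KCNJ13 model had no frame from an annotated start and so was not among the 12. Both KCNE1 models had the same length as the reference there, 129 amino acids. Members with more than 1 start site group were 23 or 24, single-exon coding sequences 18 by the longest RefSeq frame against 21, models 232 or 233, and the median promoter GC content 64.4% over the 250 bases before the start against 65.7%. Introns and chains found in GENCODE were the same, 18 and 4, under their alternatives. No paired analysis was possible because the assembly holds no value per library, and no replicate could be left out for the same reason. Depth is unknown, so the lack of a joined model at a gene does not show that the cells lacked such a transcript.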
